A study of Drosophila melanogaster with 4 samples.

Results

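Wing disc-associated myoblasts are the muscle precursors that sit on the notum epithelium of the wing imaginal disc and later build the adult flight muscles of Drosophila melanogaster. The values below describe the transcriptome of these cells in the control group of an RNA interference experiment, at 0 hours after puparium formation (APF), the onset of pupation. This group holds 2 of the 4 libraries of the series, control replicates 2 and 3, and all 17494 genes of the deposited count table were kept. The larvae were raised at 29°C, and cells of dissociated, pooled discs were sorted by viability, size and GFP. The labelled genotype is Mef2-Gal4;UAS-GFPnls;UAS-Y RNAi, in which the muscle driver Mef2-Gal4 expresses nuclear GFP and a hairpin against the pigmentation gene yellow (y). The protocol label instead names the reporter UAS-GFP::Gma and a cross to wild type, so the exact control genotype is uncertain. The sort selects cells in which Mef2-Gal4 is active, and the values are averages over all cells that passed it. Full-length cDNA was amplified from little RNA without molecular identifiers, so intervals and detection limits cover counting error only.

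In these precursors Twist (Twi) and Notch signalling are known to hold cells in a proliferating, undifferentiated state. Mef2 and Vestigial (Vg) act in muscle differentiation and flight muscle identity, and Cut (Ct) marks the myoblasts of the direct flight muscles. When the pupa forms, myoblasts leave the disc, stop dividing and fuse with larval muscle templates or founder cells, and the sarcomere genes are switched on afterwards.

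The control libraries held 53082579 counts in replicate 2 and 53957914 in replicate 3, and a count of 0 allowed a level of up to 0.0565 and 0.0556 counts per 1000000 counts of the library (CPM). Levels are compared between genes as TPM, the counts per kilobase of deposited gene length scaled to 1000000 within a library, and the value of replicate 2 is given before that of replicate 3. At least 1 count was found in both libraries for 12045 genes, or 68.9% of the table, and for 10442 of 13836 protein-coding genes (75.5%). At 10 or more TPM in both libraries were 6793 genes (38.8%), among them 6354 protein-coding genes (45.9%), and the last share is the background for the gene lists below. Another 5525 protein-coding genes (39.9%) stayed under 1 TPM in both libraries, and 3983 genes of any kind had 0 counts in both. The median protein-coding gene lay at 4.89 TPM. With a single group of 2 libraries no test between conditions was possible, and no p-value is given. The spread between the libraries beyond counting noise, the biological coefficient of variation from edgeR's common dispersion, was 9.31% over 9972 genes. The labels speak of biological replicates and the study's methods of technical ones, so this spread may be technical.

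All 7 markers of disc myoblasts were present. Him, an inhibitor of Mef2 activity that keeps myoblasts undifferentiated (FBgn0030900, dm6 chromosome X, 18209427 to 18210741), was the highest with 10177 and 7761 TPM. The mesodermal regulator twi (FBgn0003900, chromosome 2R, 22985374 to 23048325) had 2459 and 2133 TPM, and its exons share bases with CG9897 and an antisense RNA. The repressor zfh1 (FBgn0004606, chromosome 3R, 30765926 to 30789202) had 472 and 450 TPM. These 3 genes, known from the undifferentiated state, lay above the remaining 4 markers in both libraries.

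The fibroblast growth factor receptor htl, through which the disc epithelium is known to maintain myoblasts (FBgn0010389, chromosome 3R, 18045216 to 18052984), had 406 and 428 TPM. The muscle identity factor vg (FBgn0003975, chromosome 2R, 12884632 to 12899385) had 162 and 156 TPM. Mef2 (FBgn0011656, chromosome 2R, 9913496 to 9958858) had 126 and 137 TPM. Both libraries thus held Mef2 at a level far below twi. The direct flight muscle marker ct (FBgn0004198, chromosome X, 7608428 to 7678859) was lowest by TPM, with 48.7 and 48.8 TPM. By counts, which do not divide by length, ct (13967 and 14232) lay above vg (12903 and 12683) in both libraries.

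The hairpin target y (FBgn0004034, chromosome X, 356509 to 361245) had 0 counts in both libraries. The eye colour gene w, which fly transgenes commonly carry as a marker, had 277 TPM in each library, and transgene and endogenous transcripts are not told apart by the counts.

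The most abundant transcripts encoded chaperones, translation factors, cytoskeletal proteins and products of the Notch response. Hsc70-4, the constitutive cytosolic chaperone of the Hsp70 family, was first with 12318 and 11637 TPM. The elongation factor eEF1alpha1 followed with 11272 and 11139 TPM and the chaperone Hsp83, the fly Hsp90, with 10840 and 11112 TPM. The cytoplasmic actin Act5C had 8997 and 9265 TPM. Him was rank 5, but its libraries spanned the range from above Act5C to near alphaTub84B (7550 and 7435 TPM), so its place among these neighbours is not fixed. Rank 7 was E(spl)m6-BFM, a Bearded-family member of the Enhancer of split complex (FBgn0002632, chromosome 3R, 26032911 to 26034047), with 7285 and 6604 TPM. Of the 20 first genes by TPM, betaTub56D, Hsp23, Argk, sta, tsr, Cyp1, eEF2, Hsp27, pAbp, Hsp26, betaTub60D and ATPsynC ranged from 3362 to 6700 TPM in single libraries. Argk encodes arginine kinase, which buffers ATP in muscle, and betaTub60D encodes the mesoderm-associated beta tubulin. The last of the 20, lncRNA:CR42491 with 3412 and 3365 TPM, shares exon bases with RpL22, so its level is uncertain.

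**Figure D1:**
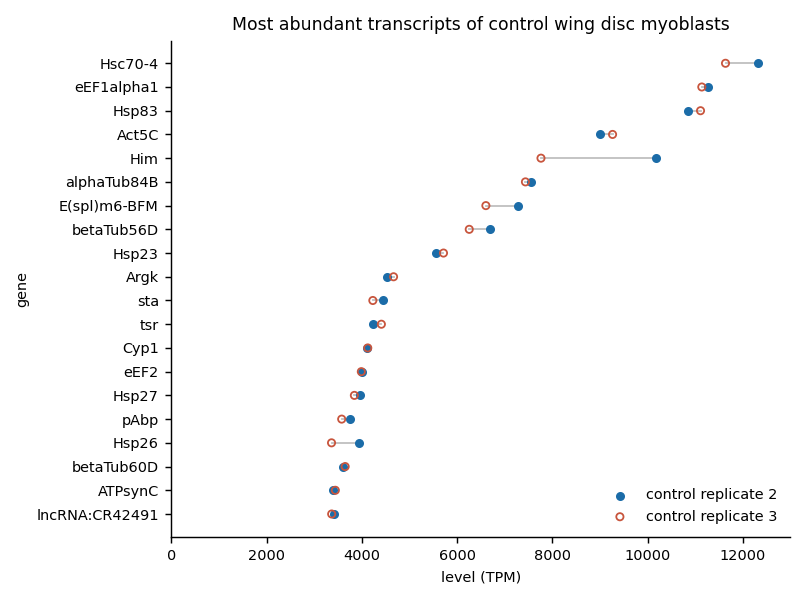
The 20 most abundant genes by mean TPM (vertical axis) and their level in TPM (horizontal axis, linear from 0) in control replicate 2 (filled) and control replicate 3 (open), with a grey line joining the libraries of a gene. Him shows the widest gap of the 20, 10177 TPM in replicate 2 and 7761 TPM in replicate 3, while Cyp1 lay at 4113 and 4123 TPM.

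RNA was spread over many genes. The 10 most abundant genes took 8.52% of all TPM in replicate 2 and 8.16% in replicate 3, and 511 and 539 genes made up 50% of it. By contrast only 117 genes reached 1000 TPM in both libraries, 113 of them protein-coding. Because CPM does not divide by length, it ranked long genes higher. The 20 first genes of both scales shared 15 members. Ppn, the extracellular matrix protein papilin, was rank 5 by CPM with 7064 and 7390 CPM and rank 53 by TPM with 1706 and 1783 TPM. Cdep, of 18664 exon bases, was rank 19 by CPM and rank 561 by TPM. The opposite shift was seen for snoRNA:Psi18S-531, of 152 bases, which was rank 3938 by CPM and rank 180 by TPM, and for RpL41, at rank 1508 and rank 102. The 200 first genes by TPM had a median length of 1304 bases and those by CPM one of 3090 bases.

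Genes of protein synthesis and folding made up a large share of the RNA. Cytosolic ribosomal protein genes were at 10 or more TPM in 82 of 87 cases, with a median of 1029 TPM, and took 10.3% of TPM in replicate 2 and 10.1% in replicate 3. On the scale of counts, where short genes weigh less, the same genes took 4.41% and 4.31%. The highest was sta, the small subunit protein RpSA, with 4449 and 4229 TPM. The 5 members below 10 TPM were RpS5b, RpS28a, RpS10a, RpL37b and RpL10Aa, each a paralog of a gene in the same list, and RpL10Aa had 0 counts. Translation factors reached 10 TPM in 36 of 40 cases, and 34 of them reached 100 TPM. The exceptions included the germline cap-binding proteins eIF4E3 and eIF4E7, both at 0 counts.

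Chaperone genes took 5.46% and 5.30% of TPM. Besides the constitutive Hsc70-4, the small heat shock proteins Hsp23 (5546 and 5714 TPM), Hsp27 (3968 and 3842 TPM) and Hsp26 (3932 and 3362 TPM) were among the 20 first genes. All members of the cytosolic chaperonin CCT in the list, which folds actin and tubulin, lay between 448 and 1658 TPM in single libraries. The stress-induced Hsp68 had 988 and 790 TPM, and the Hsp70 copies ranged from 26 to 167 TPM, values that are uncertain because the copies are nearly identical. All libraries of the series came from larvae at 29°C, so temperature cannot be told apart from the cells' own state in these levels.

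Mitochondrial and turnover machinery was present almost completely. All 72 mitochondrial ribosomal protein genes and 61 of 62 nuclear-encoded subunits of oxidative phosphorylation were at 10 or more TPM, with medians of 94.2 and 245 TPM, and ND-B8 was the exception with 7.46 and 5.38 TPM. In contrast, none of 16 paralogs of such subunits, named after them with the suffix L, reached 10 TPM in both libraries, and their median was 0.304 TPM. The 37 genes of the mitochondrial genome had 0 counts, so mitochondrial transcripts are not measured here. Of 32 proteasome genes 31 had 245 TPM or more in each library. The exception was Prosalpha1 with 0.538 and 0.925 TPM, and its near-identical neighbour CG30382 had 0.639 and 0.941 TPM, so the level of this subunit is uncertain. Glycolytic enzymes were at 10 or more TPM in 12 of 13 cases, with Eno (enolase) highest at 647 and 640 TPM and Ldh (lactate dehydrogenase) at 12.5 and 11.0 TPM.

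Cell division genes were likewise expressed. Of 69 genes of the cell cycle and DNA replication 68 were at 10 or more TPM, with a median of 132 TPM. The replication clamp PCNA had 783 and 838 TPM, the mitotic kinase polo 381 and 365 TPM, and Cdk1 333 and 352 TPM. The phosphatase stg, the fly Cdc25 that starts mitosis, had 283 and 230 TPM, and its meiotic relative twe was the single member under 10 TPM in a library, with 9.05 and 10.4 TPM. Histones gave an uneven picture. Of 111 genes of the histone cluster none reached 10 TPM and 89 had 0 counts, whereas the replacement histones His2Av and His4r had 1940 and 1906 TPM and 1638 and 1700 TPM. Cluster histone messages lack a poly(A) tail and their copies are nearly identical, so low counts do not show low expression.

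Notch pathway genes held the most abundant regulatory transcripts. Of 31 members 27 were at 10 or more TPM, or 87.1% against the background of 45.9%, with a median of 110 TPM. Notch itself had 114 and 106 TPM and its ligand Dl 32.4 and 31.1 TPM, whereas the other ligand, Ser, had 3.57 and 4.07 TPM. The glycosyltransferase fng, which changes the choice of ligand, had 481 and 467 TPM. The DNA-binding partner Su(H) was low, with 27.1 and 26.6 TPM, and the pathway antagonist numb had 16.9 and 15.7 TPM.

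The direct response genes of the Enhancer of split complex on chromosome 3R were far higher. E(spl)m7-HLH had 3185 and 2524 TPM, E(spl)m3-HLH 1966 and 1701 TPM, E(spl)mbeta-HLH 884 and 774 TPM and E(spl)mgamma-HLH 770 and 489 TPM. By TPM these 4 basic helix-loop-helix repressors were among the 5 highest transcription factors of all. By mean CPM, which does not divide by length, twi (2380), br (2188), lola (1429) and zfh1 (1383) lay above E(spl)m7-HLH (1217) and E(spl)m3-HLH (1039). On that scale E(spl)mbeta-HLH (352) lay below Myc (807), sd (796) and hth (731). The complex was not uniform. E(spl)mdelta-HLH (203 and 164 TPM) and E(spl)m8-HLH (137 and 110 TPM) were lower, and E(spl)m5-HLH (6.1 and 4.45 TPM) and E(spl)m4-BFM (4.35 and 4.22 TPM) stayed under 10 TPM, although they lie in the same complex.

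Of 315 transcription factors in a hand-made list, 146 (46.3%) were at 10 or more TPM, close to the 45.9% of all protein-coding genes, and 21 had 0 counts. After the E(spl) genes and twi came the stress and secretory factors crc (ATF4, 501 and 503 TPM) and Xbp1 (477 and 497 TPM). The helix-loop-helix antagonist emc followed with 437 and 495 TPM, then zfh1. The libraries of crc lay between those of E(spl)mgamma-HLH. The libraries of emc overlapped those of Xbp1 and those of zfh1, while Xbp1 lay above zfh1 in both libraries. A further step in TPM led to br, the ecdysone-induced Broad factor, with 250 and 260 TPM. From br down to Xrp1, the 20th factor, single libraries lay between 190 and 260 TPM. This group held the chromatin proteins Cp190 and Clamp, the Twist partner da (239 and 229 TPM), Stat92E (214 and 224 TPM), the E2F partner Dp, Myb, crp, the Hedgehog effector ci (190 and 232 TPM) and the Vestigial partner sd (207 and 211 TPM).

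**Figure D2:**
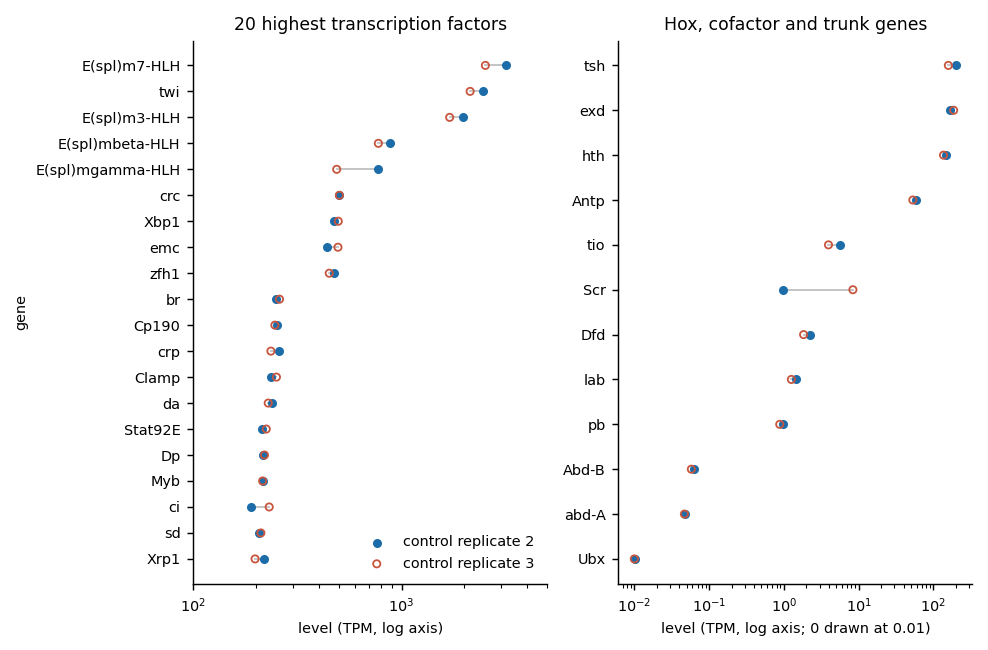
Levels in TPM (log axes) of the 20 highest transcription factors (left) and of Hox, cofactor and trunk genes (right) in control replicate 2 (filled) and control replicate 3 (open), with a value of 0 drawn at 0.01. E(spl)m7-HLH had 3185 and 2524 TPM, and among the Hox genes Antp, with 59.1 and 53.2 TPM, lay above Scr, whose libraries were at 0.987 and 8.39 TPM.

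Antennapedia (Antp, FBgn0260642, chromosome 3R, 6896253 to 6999228), the Hox gene of the middle thorax, had 59.1 and 53.2 TPM. It was the 86th of the 315 factors, between Nf-YA (54.7 and 59.0 TPM) and Sox14 (51.3 and 58.1 TPM), and its libraries overlapped those of both. Antp was the one Hox gene at 10 or more TPM. Dfd, lab and pb of the head and Scr of the first thoracic segment stayed under 10 TPM in both libraries, and Ubx, abd-A and Abd-B of the posterior segments under 0.1 TPM. Cofactors of the Hox proteins were higher than any Hox gene, with exd at 166 and 187 TPM and hth at 148 and 137 TPM. The trunk gene tsh had 203 and 159 TPM, and its paralog tio 5.57 and 3.96 TPM.

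Factors known from muscle and mesoderm were present in part. Of 53 such factors 22 (41.5%) were at 10 or more TPM and 21 stayed under 1 TPM in both libraries, with a median of 1.82 TPM. Apart from the markers described above, ara had 143 and 130 TPM, ap 118 and 142 TPM and mid 126 and 106 TPM. The direct flight muscle factors ap and lms (60.9 and 64.4 TPM) were thus present beside ct. The fibrillar muscle selector salm had 1.55 and 2.09 TPM, the myogenic factor nau, the fly MyoD, 12.8 and 16.6 TPM, and the fusion regulator lmd 1.97 and 2.77 TPM. Genes of other mesodermal tissues were near 0, among them tin of the heart (0.470 and 0.385 TPM), bap of the gut muscle and eve of dorsal muscle and heart cells (0 counts each).

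Of 150 receptors and adhesion molecules 72 (48.0%) were at 10 or more TPM, again close to the background. The highest was Nrt, the neurotactin adhesion protein, with 852 and 879 TPM, and its partner Ama, listed among matrix proteins, had 1078 and 1014 TPM. The Wnt5 receptor drl, a Ryk-type kinase, had 780 and 646 TPM, its relative dnt had 236 and 252 TPM, and the pseudokinase otk had 402 and 443 TPM. Fas2 (498 and 481 TPM) lay between drl and otk in the order. After otk came htl, given above, the netrin receptor unc-5 (397 and 391 TPM) and the Wnt receptor fz2 (383 and 350 TPM). The next receptors, apart from dnt, were Tre1, the BMP receptor tkv (309 and 311 TPM) and the E-cadherin shg (273 and 295 TPM). The beta integrin mys (264 and 278 TPM), Cirl, hbs and Dg (216 and 235 TPM) came after them. This order is by TPM. By mean CPM Nrt (1608) stayed above Fas2 (1553), while Fas2, fz2 (1180) and Cirl (1028) lay above drl (960). Of the 150 receptors 14 had 0 counts, among them GluRIIA, GluRIIB, Oamb, Dop2R, 5-HT2A, Octbeta2R and nAChRbeta1.

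Ligands and receptors of one pathway were often present at unequal levels. Of 60 ligand genes 23 (38.3%) were at 10 or more TPM. For the fibroblast growth factor receptor htl, the ligands ths (0.205 and 0.138 TPM) and pyr (1.11 and 0.558 TPM) were near 0. The same held for wg (0.164 and 1.23 TPM), dpp (0.466 and 0.573 TPM) and hh (2.60 and 1.26 TPM), while fz2 and fz, tkv, and ptc (95.5 and 92.0 TPM) were expressed. The JAK-STAT receptor dome had 173 and 179 TPM, and its ligands upd1, upd2 and upd3 stayed under 1 TPM.

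Other ligands were expressed in the sorted cells. The heparin-binding factors miple2 and miple1, relatives of midkine and pleiotrophin, had 1088 and 1090 TPM and 249 and 260 TPM. The guidance ligands Sema2a (490 and 508 TPM) and Sema5c (243 and 269 TPM) and the EGF receptor ligand spi (204 and 208 TPM) came next. The BMP ligand gbb had 161 and 156 TPM and the tumour necrosis factor egr 131 and 102 TPM. Wnt4 and Wnt5, NetA and NetB, and sli lay between 44.0 and 91.3 TPM in single libraries. Pvf2 (51.98 and 67.1 TPM) and Pvf3 (28.9 and 30.7 TPM) were above their receptor Pvr (9.09 and 8.76 TPM) in both libraries, and the ligand of Alk, jeb, had 3 and 2 counts.

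**Figure D3:**
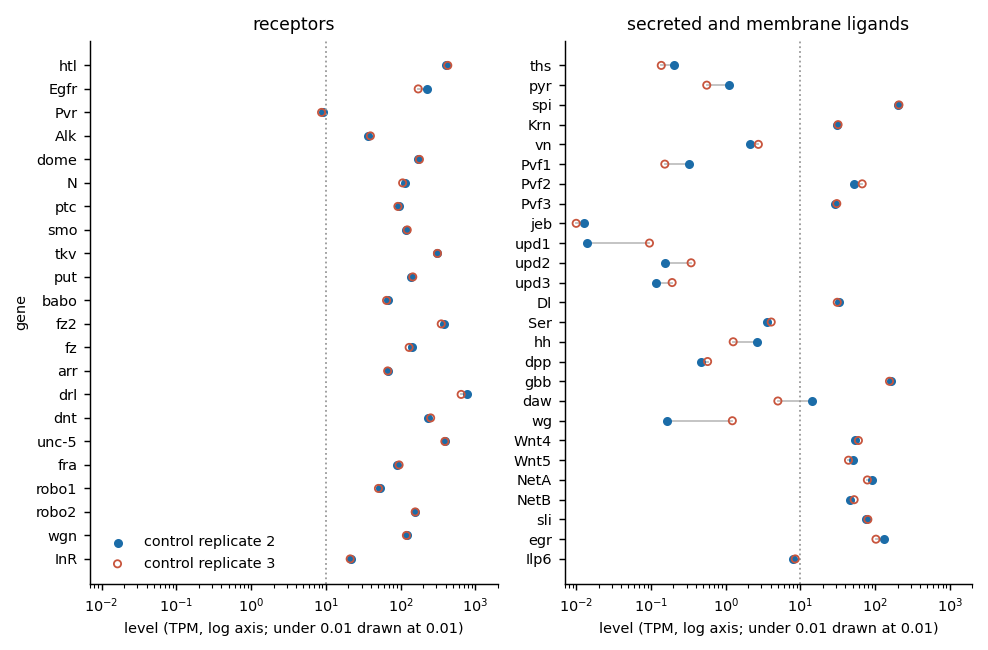
Levels in TPM (log axes, values under 0.01 drawn at 0.01) of receptors (left) and ligands (right) chosen by pathway, in control replicate 2 (filled) and control replicate 3 (open); the dotted line marks 10 TPM. All receptors drawn except Pvr, at 9.09 and 8.76 TPM, lay right of the line, while ths, pyr, dpp, wg, hh and the upd ligands lay left of it.

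Most listed genes of myoblast fusion were expressed while most genes of the contractile apparatus were not. Of 38 fusion genes 34 were at 10 or more TPM (89.5%), with a median of 115 TPM. The list of cytoskeletal regulators reached 92.6% by the same measure. Actin regulators led the list, with Cdc42 at 515 and 509 TPM, Arp3 at 374 and 376 TPM and Rac1 at 296 and 292 TPM. The recognition receptors were uneven. The immunoglobulin receptors hbs and rst, through which fusing cells recognize each other, had 235 and 225 TPM and 123 and 108 TPM. Their relatives sns (6.17 and 5.56 TPM) and kirre (5.40 and 5.46 TPM) were below 10 TPM, as were lmd and mgl.

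Of 37 sarcomere and contraction genes 9 were at 10 or more TPM (24.3%) and 21 stayed under 1 TPM, with a median of 0.597 TPM. The count was 14 at a threshold of 5 TPM and 5 without genes that share exon bases with another. The 6 highest were Argk, the actins Act87E (449 and 497 TPM) and Act57B (256 and 303 TPM), flr, the calcium pump SERCA (149 and 159 TPM) and Lasp. Reads of the actin genes may be shared between near-identical copies. Myosin heavy chain, Mhc, had 0.364 and 0.198 TPM, and the troponin genes up and wupA, the tropomyosin Tm2, the paramyosin Prm and the projectin bt were all under 1 TPM. Mp20 and the flight muscle protein fln had 0 counts. The flight muscle actin Act88F had 5.31 and 5.65 TPM. Among RNA regulators known from muscle, how had 157 and 152 TPM, Rbfox1 82.3 and 78.7 TPM, mbl 2.26 and 2.28 TPM and the flight muscle splicing factor bru1 0.0557 and 0.0329 TPM.

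**Figure D4:**
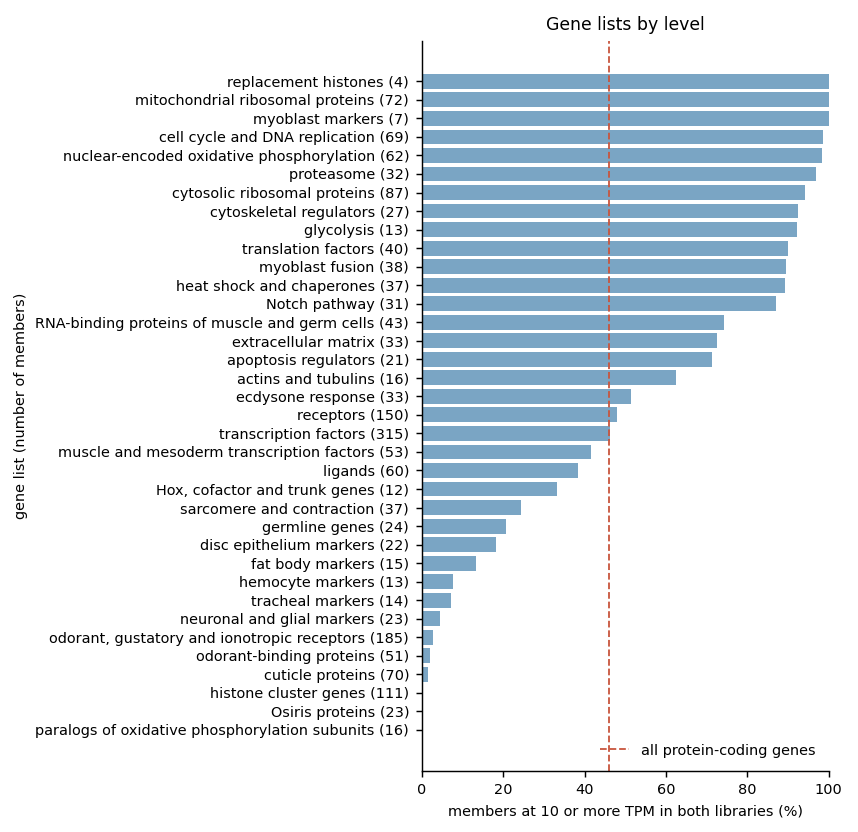
Share of the members of each gene list at 10 or more TPM in both control libraries, in percent (bars from 0; number of members in brackets), with the dashed line at 45.9% for all protein-coding genes. Mitochondrial ribosomal proteins reached 100% and cell cycle genes 98.6%, transcription factors (46.3%) and receptors (48.0%) lay at the line, and sarcomere genes (24.3%) and cuticle proteins (1.43%) lay below it.

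Matrix and hormone genes completed the profile. Of 33 extracellular matrix genes 24 were at 10 or more TPM (72.7%), with Ppn, Ama, SPARC (965 and 968 TPM) and the laminins LanB2 (453 and 479 TPM) and LanB1 (349 and 369 TPM) highest. The collagen IV chains Col4a1 and vkg were lower, with 82.8 and 71.4 TPM and 30.8 and 32.5 TPM. Among ecdysone response genes 17 of 33 (51.5%) were at 10 or more TPM, near the background of 45.9%. The receptor subunits EcR and usp had 37.3 and 31.1 TPM and 90.6 TPM in each library. Beside br, given above, Eip75B had 71.1 and 75.3 TPM and Eip74EF 17.2 and 16.2 TPM. The levels of ftz-f1 were 8.54 and 7.68 TPM, those of Blimp-1 0.652 and 1.07 TPM and those of Eip93F 0.127 and 0.131 TPM. The salivary glue genes Sgs3, Sgs4 and Sgs5 were under 1 TPM.

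Markers of other cells that a disc preparation could hold were mostly near 0. Of 13 hemocyte markers 1 was at 10 or more TPM, crq with 31.9 and 35.9 TPM, while Hml had 0.0369 and 0 TPM and NimC1 0.580 and 0.583 TPM. The hemocyte count was 2 without replicate 3 and 2 at a threshold of 5 TPM. Of 15 fat body markers Hnf4 (41.2 and 47.4 TPM) and FASN1 (10.1 and 11.9 TPM) were above 10 TPM, and Lsp2 and Fbp1 had 0 counts. Of 14 tracheal markers 1 and of 23 neuronal and glial markers 1 passed, verm and loco, and the tracheal receptor btl had 2.30 and 2.73 TPM and the neuronal elav 5.63 and 4.92 TPM. The tracheal count was 2 without replicate 2, 3 at 5 TPM and 0 at 20 TPM, and the neuronal and glial count was 3 at 10 or more CPM.

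Of 22 disc epithelium markers 4 were at 10 or more TPM, namely shg, rn (151 and 152 TPM), cora (133 and 121 TPM) and Wnt4. The epithelial genes nub, Dll, bi, grh and Fas3 stayed under 3 TPM. In a bulk sample fewer cells of a type and less RNA per cell cannot be told apart.

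Few genes of chemosensory, cuticle and Osiris families reached 10 TPM. Of 185 odorant, gustatory and ionotropic receptors 5 were at 10 or more TPM, with Gr43a (29.6 and 32.0 TPM) and Or43b (28.0 and 26.9 TPM) highest. The counts for odorant-binding proteins were 1 of 51, for cuticle proteins 1 of 70 and for Osiris proteins 0 of 23. The chemoreceptor count was 9 at a threshold of 5 TPM and 2 at 20 TPM. Without genes that share exon bases with another it was 2, and the odorant-binding and cuticle counts were 0. Among 24 germline genes 21 were detected and 5 (20.8%) were at 10 or more TPM, with a median of 2.50 TPM. The germline count was 8 at 5 TPM, 2 at 20 TPM and 2 without genes that share exon bases with another. The highest was tud with 171 and 181 TPM, while vas had 0.171 and 0.112 TPM and osk 0.0439 and 0 TPM.

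Chromosomes differed in their share of active genes. Between 41.3% (2L) and 50.3% (X) of the protein-coding genes of the large chromosome arms were at 10 or more TPM. The small chromosome 4 had 49 of 79, or 62.0%. Of the 23 protein-coding genes of the Y chromosome FDY alone had counts in both libraries, with 75 and 94. The RNA of the male dosage compensation complex, lncRNA:roX1, had 218 and 209 TPM. Long noncoding RNAs were rarely abundant, with 77 of 1903 (4.05%) at 10 or more TPM, 43 at 10 or more CPM, and 40 at 10 or more TPM without genes that share exon bases with another.

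The control libraries resembled each other closely but not in every gene. Of 8127 genes with 100 or more counts in at least one library, 89 (1.1%) differed by more than 2-fold in CPM, 52 higher in replicate 2 and 37 higher in replicate 3. In 37 of the 89 the exact binomial 95% interval of the fold lay wholly past 2-fold. Most were weakly expressed, with 66 of the 89 between 100 and 300 counts in their higher library and none of the 1296 genes at 10000 or more counts.

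Genes higher in replicate 3 were those with the widest differences. The homeobox gene al of the distal disc had 0 and 105 counts and the gene CG9925 had 1 and 174 counts. The wing epithelium factor bi had 11 and 173 counts and the homeobox gene E5 had 7 and 102 counts. Scr had 104 and 900 counts, a fold of 0.117 (interval 0.0949 to 0.144), and the extracellular gene tnc, which is in the matrix and tracheal lists, 505 and 3448 counts. The muscle factor Poxm had 77 and 506 counts and Myo10A 66 and 246 counts. Among the listed transcription factors with 100 or more counts, 7 of 185 were past 2-fold, 6 of them higher in replicate 3. The share was 1.1% over all genes with 100 or more counts, but 6.6% over those with 100 to 300 in their higher library. Of the 16 disc epithelium markers with 100 or more counts 4 were past 2-fold. These were bi, nub (72 and 240 counts) and grh higher in replicate 3, and hh higher in replicate 2. Neither list was compared with genes of matched counts. The part of other cells in these differences was not tested.

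The genes highest in replicate 2 were Sln (258 and 42 counts), a monocarboxylate transporter, and CG10650 (190 and 31 counts). The gene CR13656 had 145 and 26 counts, the homeobox gene mirr 183 and 37, the thrombospondin Tsp 157 and 33, and Ance-5 276 and 59. The translation inhibitor Thor, the fly 4E-BP, had 227 and 61 counts. The pair CG11889 and CG11891 had the same counts, 245 and 70, and share the same span. The activin-type ligand daw, named after its value was seen, had 1064 and 382 counts, or 14.2 and 4.99 TPM.

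**Figure D5:**
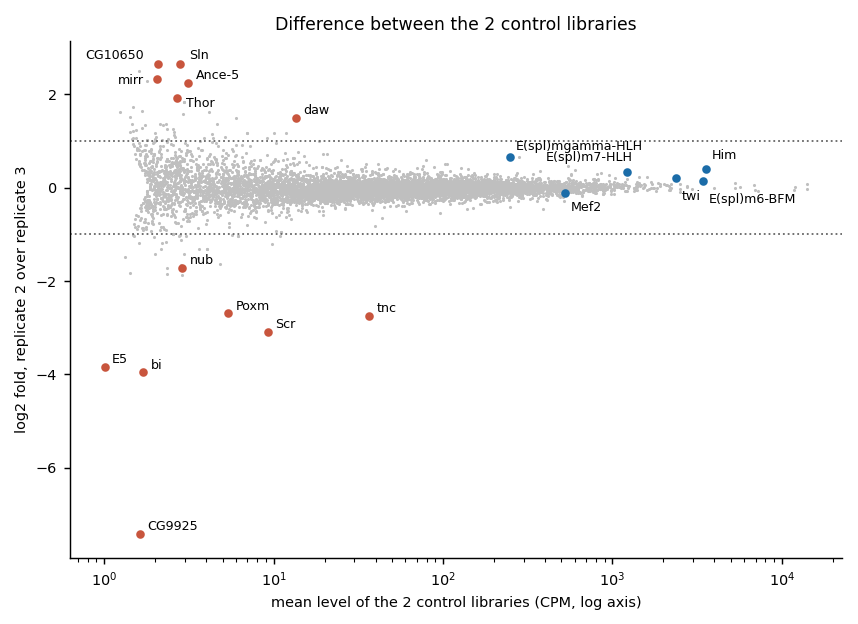
Log2 fold of control replicate 2 over control replicate 3 in CPM (vertical axis) against the mean level in CPM (log horizontal axis) for 8126 genes with 100 or more counts in a library; 1 gene, al, is not drawn because its count was 0 in replicate 2. Dotted lines mark 2-fold either way, red points are genes past it and blue points are myoblast genes, and the cloud narrows with level while Him, E(spl)mgamma-HLH and E(spl)m7-HLH lie above 0.

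Among deeply counted genes the differences were small. Over the 1296 genes with 10000 or more counts in a library, the 5th and 95th percentiles of the fold were 0.895 and 1.12. Him was 1.31-fold higher in replicate 2 (interval 1.30 to 1.32), E(spl)mgamma-HLH 1.58-fold and E(spl)m7-HLH 1.26-fold. Him and the E(spl) genes were grouped after their values were seen. The 11 of these 12 genes that had 100 or more counts in a library were each higher in replicate 2, by 1.10-fold to 1.58-fold, with a median of 1.24-fold, against a median of 0.984 over all 8127 genes. The whole Notch pathway list includes Him and E(spl) genes, so its counts are not separate from theirs. In it 20 of 30 genes lay above the median over all 8127 genes and 10 below it, with a median fold of 1.06. Other lists leaned as well: 71 of 82 cytosolic ribosomal protein genes (median fold 1.02) and 27 of 33 chaperone genes (1.03) lay above it, and 25 of 31 proteasome genes (0.961) and 60 of 72 mitochondrial ribosomal protein genes (0.932) lay below it. Other deep genes named for their fold were CG5953 (1.57), the amino acid transporter path (1.37) and Egfr (1.30) higher in replicate 2, and Toll-7 (0.725), 18w (0.752) and Nipped-A (0.779) higher in replicate 3. Him, E(spl)mgamma-HLH and E(spl)m7-HLH thus lay outside the percentiles given, and E(spl)m6-BFM, at 1.10-fold, lay inside them.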

How the data were processed

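RNA of sorted disc myoblasts was sequenced by the authors, and the deposited table holds whole-number counts of reads over exons per gene, not normalized, made by the authors on dm6; bcl2fastq 2.17.1.14, Subread, featureCounts and DESeq2 1.34 are named in the submitters' processing notes, with no aligner settings given in the sources used here. Overlapping genes appear to have received shared reads: of 518 genes whose exons lie wholly within those of another gene, 393 had counts in both control libraries, all 518 had no more than the gene around them, and 5431 genes share exon bases with another. For 12 genes the chromosome name was unusable. The authors also deposited DESeq2 values, namely a log2 fold change with its error, p-values and a mean signal, which were not used beyond their gene symbols. Every count column belonged to a listed sample.

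Only control replicates 2 and 3 were analysed. CPM used library totals, and TPM divided counts by the deposited length and scaled to 1000000. A gene counted as detected with 1 or more counts in both libraries. Folds between the libraries were computed where a library had 100 or more counts, with exact binomial 95% intervals. The spread came from edgeR 4.0.16 (filterByExpr, TMM, intercept alone), and DESeq2 1.42.0 gave alternative size factors. Biotypes came from Ensembl release 115, in which 17358 of the identifiers were found. Scaling, folds and spread were tested on simulated data, and alternatives covered thresholds, scaling, overlapping or short genes and each library left out.

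Genes were named by rule: the 20 most abundant by TPM and by CPM, the 7 markers, up to 6 members of each list and its absent members, 20 transcription factors, 15 receptors, the neighbours of Antp, the 8 largest folds on each side, the largest rank shifts and y. Some further genes were picked with their levels in view. The members and lists were chosen with earlier results of these data known. No promoter or other sequence was analysed.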

Additional observations from a re-analysis of the deposited data

How the results depend on the processing

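The number of detected genes was 11145 with a minimum of 3 counts, 10019 with a minimum of 10, and 12756 to 12800 with one library left out. The number of genes at 10 or more TPM was 6444 at 10 CPM with or without TMM scaling, 7367 at 5 TPM, 5988 at 20 TPM, 6748 without genes under 200 bases, and 6864 to 6875 with one library left out. Leaving out genes that share exon bases with others lowered it to 3716. The transcription factors at 10 or more TPM fell to 90 (129 to 153 otherwise) and the receptors to 50 (65 to 76 otherwise). Leaving those genes out also raised the level of all 20 named genes that remained by 1.64 times, since fewer genes share the scaled total. These counts thus reflect both the removed genes and the raised levels, and a few rose, such as disc epithelium markers from 4 to 5. The ribosomal protein share was 4.36% by counts and 11.5% without overlapping genes, against 10.1% to 10.3% with one library left out. Of 37 other gene lists, the count at 10 or more TPM moved by over 1.5 times in 3 at 10 CPM, 8 at 5 TPM, 4 at 20 TPM and 18 without overlapping genes. With one library left out, 3 of 74 such counts moved: tracheal markers to 2 without replicate 2, and hemocyte markers to 2 and oxidative phosphorylation paralogs to 1 without replicate 3. Genes past 2-fold between the libraries numbered 90 with TMM and 90 with DESeq2 size factors, 194 with 50 or more counts, 11 with 500 or more, 289 at 1.5-fold, 27 at 3-fold and 37 by the interval. The spread was 0.0827 with a mean of 100 or more counts, 0.102 with no filter and 0.0931 with upper-quartile scaling. Depth limits statements on absent genes to the counting floors given, and genes with near-identical copies are undercounted or split. No paired analysis was possible because a single group was described.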

Other observations

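Other gene groups not described above were present in a graded way. Of 21 apoptosis regulators 15 were at 10 or more TPM in both control libraries (71.4%), with a median of 38.9 TPM. The caspase inhibitor Diap1 was highest with 597 and 528 TPM in replicates 2 and 3, and the effector caspases Drice and Dcp-1 had 148 and 159 TPM and 141 and 136 TPM. The inhibitor antagonists rpr and hid had 38.8 and 39.0 TPM and 14.99 and 16.6 TPM, while grim had 0.0256 and 0.226 TPM. Of 27 cytoskeletal regulators 25 were at 10 or more TPM, led by tsr, the fly cofilin (4235 and 4409 TPM), and chic, the fly profilin (1701 and 1660 TPM). The nonmuscle myosin chains sqh and zip had 930 and 915 TPM and 436 and 440 TPM, and the formin Fhos had 1.74 and 1.83 TPM.

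Of 43 RNA-binding proteins 32 were at 10 or more TPM (74.4%), with Rm62 (834 and 792 TPM) and Hrb98DE (740 and 755 TPM) highest. Among long noncoding RNAs, lncRNA:CR44999 had 707 and 582 TPM, and its exons share bases with those of Myc, so the level is uncertain. The stress-responsive lncRNA:Hsromega had 203 and 191 TPM.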
